A study of Drosophila melanogaster with 12 samples.

Results

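Translation factors and aminoacyl-tRNA synthetases were followed in cultured organs of Drosophila larvae given the steroid hormone 20-hydroxyecdysone (20E), the protein synthesis inhibitor cycloheximide, or both. The members were the probe sets that the platform annotation assigns to exactly 1 gene whose symbol starts with eIF, eEF or eRF, or is an amino acid code followed by RS, with -m for the mitochondrial enzymes. The rule gave 84 probe sets for 74 genes, of 10844 genes with a probe set of exactly 1 gene and 13966 probe sets in all. Each gene was read from the probe set with its highest mean over the 12 arrays. The 74 genes were 37 initiation factors, 5 elongation factors, 2 release factors, 16 cytoplasmic synthetases and 14 mitochondrial synthetases. Of the 74 genes, 61 had an intensity above 50 on every array, and 8 lay under 50 on every array. Those 8 were CysRS and 7 mitochondrial synthetases.

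Organs came from w1118 larvae of the last instar, wandering and with partly blue guts, about 8 h before pupariation. All groups were dissected at 8 animals per well, cultured for 1 h in Schneider's medium, given fresh medium and held for 6 h at 25 °C. The fresh medium held no hormone, 5 µM 20E, 85 µM cycloheximide, or 5 µM 20E with 85 µM cycloheximide, with 3 arrays per group from experiments done independently. The source label reads whole animal while the protocol describes dissected and cultured organs, so each array averages many tissues of pooled animals.

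Translation starts when initiation factors place the small ribosomal subunit and an initiator tRNA on the mRNA. Elongation factors bring in charged tRNAs and move the ribosome, and release factors end the chain at a stop codon. Aminoacyl-tRNA synthetases load each tRNA with its amino acid, and most mitochondrial enzymes of this family are encoded by separate nuclear genes. Cycloheximide blocks ribosome movement, so it acts on the process these genes serve, and it is used in such cultures to keep hormone responses that need no new protein.

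The treatments were first checked on genes known to respond to 20E. Of the genes planned for this check, Eip74EF, Eip75B and Hr3, only Hr3 was found on a probe set of exactly 1 gene. Eip78C, an ecdysone-induced nuclear receptor gene chosen for this check after its values were seen, measured 42.4 to 50.3 without hormone and 127 to 224 with 20E, a log2 difference of 1.78 (adjusted p = 0.00169). With cycloheximide present in both groups the difference was 1.65 (adjusted p = 0.00164). Hr3, a further receptor gene of the ecdysone response, had 2 probe sets. The dimmer rose with 20E (0.63, adjusted p = 0.0935) and with 20E in cycloheximide (1.10, adjusted p = 0.00641). The brighter, the one the rule would use, did not pass the test (-0.035 and 0.12). Array medians lay between 114 and 118. Among the marker lists, 8 testis markers had the largest ratio of highest to lowest summed intensity within a group. Their sum ran from 2668 to 3844 without hormone, 3301 to 4617 with 20E, 2784 to 4329 with cycloheximide and 2707 to 4720 with both. No testis, salivary gland, fat body, midgut, muscle, neuron or blood cell marker on the lists passed the test in any comparison. Of all probe sets 0.136% to 4.42% passed it, depending on the comparison.

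Few of the 74 genes were called, as were few of all probe sets. A gene was called where limma gave an adjusted p under 0.10 (Benjamini-Hochberg over all 13966 probe sets) and the fold change was at least 1.3. With 20E against no hormone 1 member was called, eRF3, which rose, where 2.16% of all probe sets were called, and 8 members (10.8%), all higher, had an unadjusted p under 0.05, against 14.9% of all probe sets. With cycloheximide against no hormone 0 members were called by limma, against 4.42% of all probe sets, and 6 members (8.11%), all lower, had an unadjusted p under 0.05, a smaller share than the 21.1% of all probe sets. With 20E in the presence of cycloheximide, against cycloheximide alone, 0 members were called by limma, against 1.25% of all probe sets, and 2 members (2.70%), both higher, had an unadjusted p under 0.05, against 10.2% of all probe sets. With 20E plus cycloheximide against 20E alone 1 member was called, eIF3h, which fell, against 1.99% of all probe sets. The interaction, which asks whether the effect of 20E differed with cycloheximide present and had no fold limit, called 0 members by limma, against 0.136% of all probe sets, and 10 members (13.5%), 1 higher and 9 lower, had an unadjusted p under 0.05, near the 14.7% of all probe sets. The permutation method named in the study's methods, significance analysis of microarrays (SAM), called 2, 0, 0 and 1 members in these 4 pairwise comparisons in the same order, where it called 2.23%, 5.73%, 1.20% and 2.33% of all probe sets. In whole organs, fewer cells of a type and less RNA per cell cannot be told apart.

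The members nevertheless sat off centre in comparisons that involved the 20E arrays. In 20E against no hormone, 54 of 74 log2 differences (73.0%) were positive, against 47.9% of all probe sets, and the median was 0.087 against -0.0062. In 20E plus cycloheximide against 20E, 59 of 74 (79.7%) were negative, against 51.7% of all probe sets, and the median was -0.13 against -0.0055. In that comparison 21 members (28.4%) had an unadjusted p under 0.05, all lower, against 13.9% of all probe sets. These comparisons share the 20E arrays. In the 2 comparisons without the 20E arrays the medians were -0.019 for 20E plus cycloheximide against cycloheximide (all probe sets 0.017) and -0.019 for cycloheximide against no hormone (all probe sets -0.033).

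The 95% interval of the log2 difference lay within 1.3-fold of no change for 45 members with 20E, 50 with 20E in cycloheximide, 54 with cycloheximide and 40 with 20E plus cycloheximide against 20E. These were 60.8%, 67.6%, 73.0% and 54.1% of the members, against 68.2%, 72.2%, 63.5% and 69.2% of all probe sets. All 74 intervals lay within 2-fold in each of these 4 comparisons, as did 98.0%, 98.6%, 98.0% and 98.8% of all probe sets. The number of arrays limited the precision, and the SE of a member ran from 0.056 to 0.26 with a median of 0.10.

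**Figure D1:**
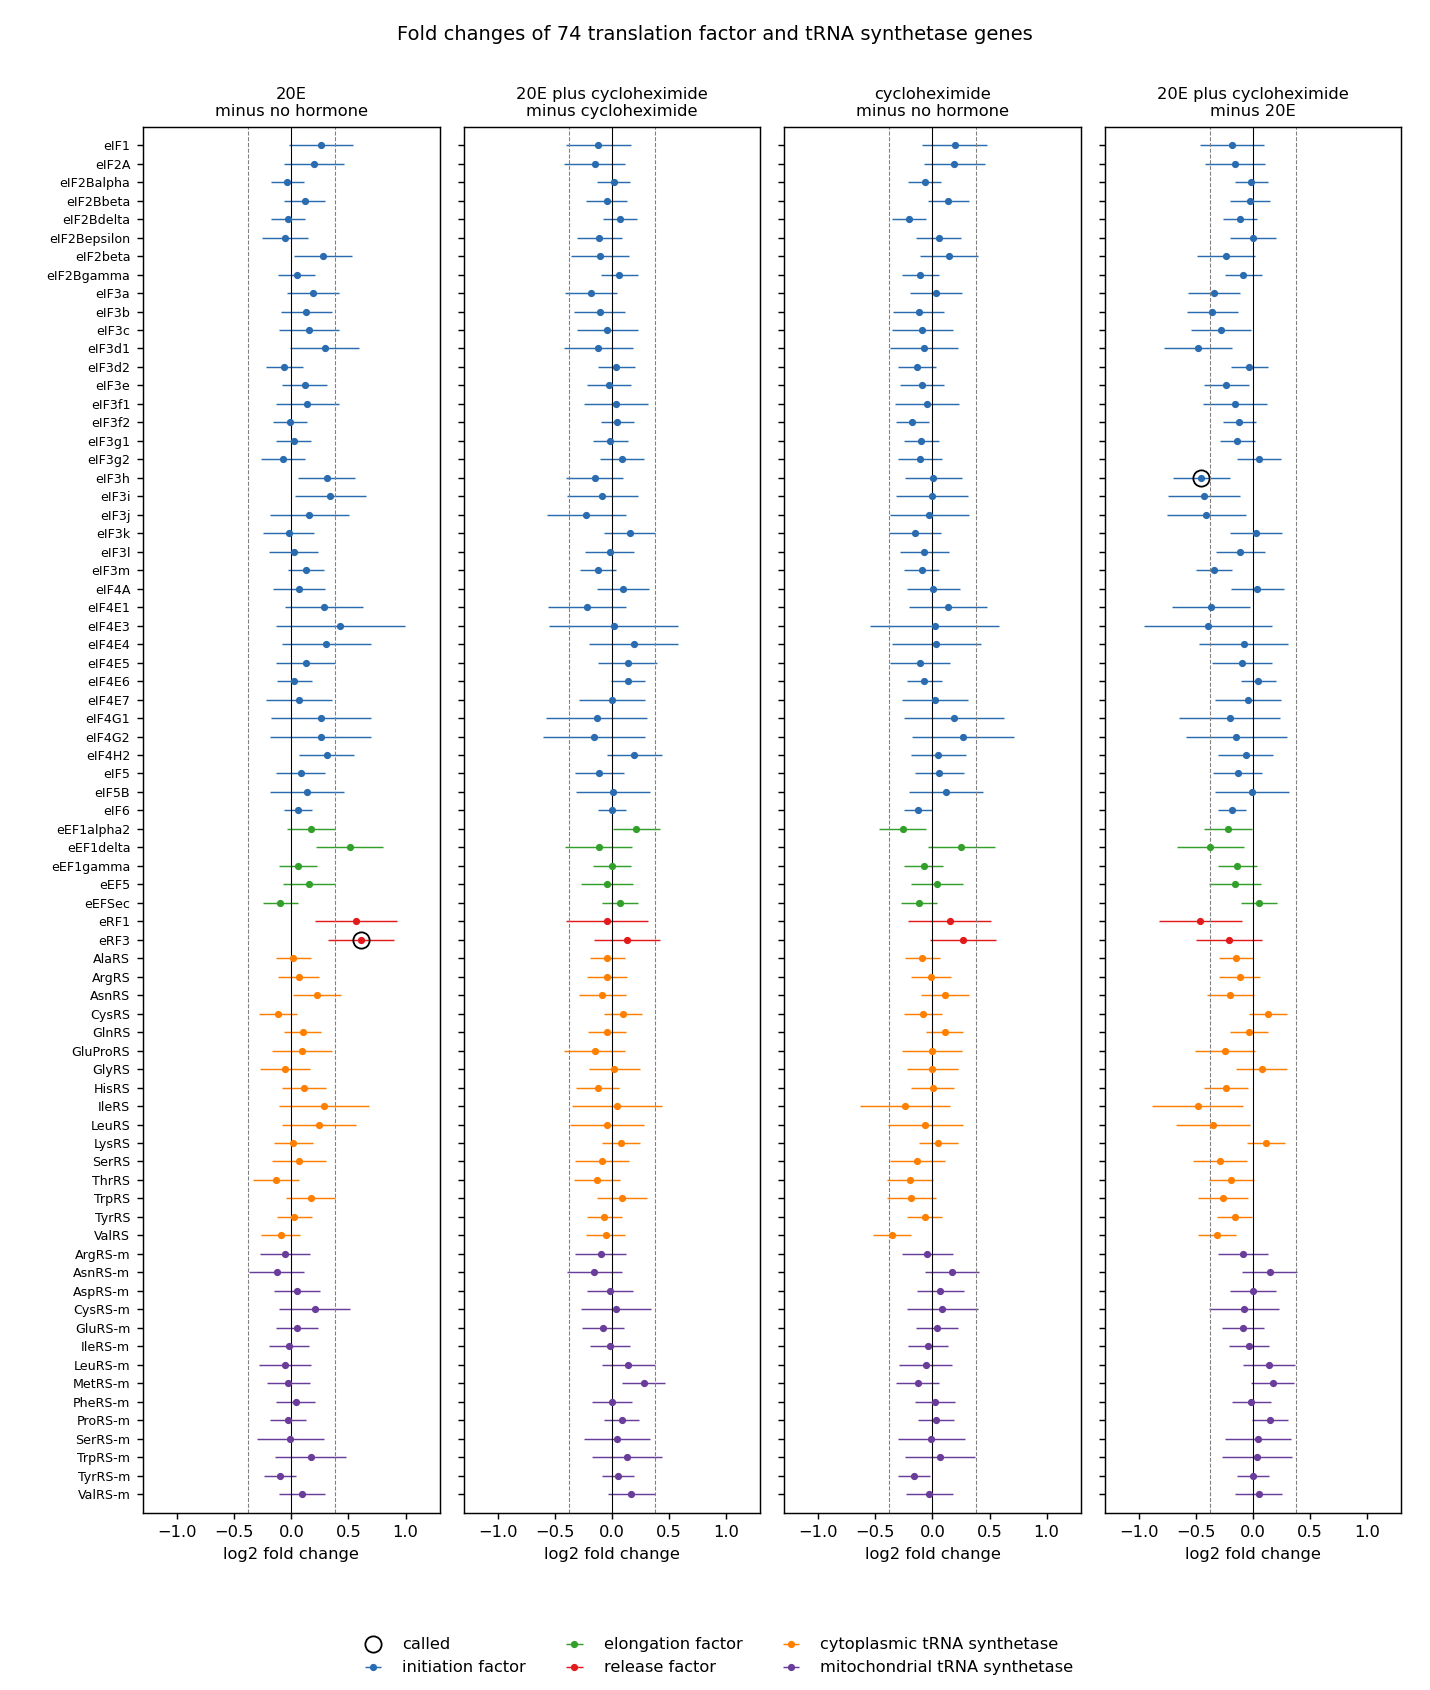
Log2 fold change (x axis) of each of the 74 genes (rows, coloured by role) in 4 comparisons, with points for the estimate and bars for the 95% interval from limma. Dashed lines mark 1.3-fold in either direction and circles the called genes, eRF3 with 20E (0.61) and eIF3h in 20E plus cycloheximide against 20E (-0.45).

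The eIF2 and eIF2B genes had the median nearest 0 among the initiation factor groups in each of the 4 pairwise comparisons. eIF2 carries the initiator tRNA, and eIF2B recharges it with GTP. With 20E the 6 measured subunits had a median difference of 0.0091, and 5 of 6 intervals lay within 1.3-fold. eIF2beta measured 631, 579 and 663 without hormone, 756, 814 and 704 with 20E, 739, 663 and 671 with cycloheximide and 768, 641 and 538 with both agents. All 3 arrays with 20E lay above the 3 without hormone, at a difference of 0.28 (SE 0.12, 95% interval 0.026 to 0.53, adjusted p = 0.291), which did not pass the test. eIF2Bdelta, a regulatory subunit, measured 407, 409 and 419 without hormone, 373, 407 and 433 with 20E, 338, 356 and 375 with cycloheximide and 366, 371 and 385 with both agents. Its 3 arrays with cycloheximide lay below the 3 without hormone, at -0.21 (SE 0.068, 95% interval -0.36 to -0.060, adjusted p = 0.115), again short of the test, and its other probe set gave -0.100 (adjusted p = 0.411). The regulatory subunits eIF2Balpha and eIF2Bbeta and the catalytic subunits eIF2Bgamma and eIF2Bepsilon ranged from -0.11 to 0.14 over the 4 pairwise comparisons.

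Among the initiation factors 9 of the 11 genes with an unadjusted p under 0.05 in 20E plus cycloheximide against 20E were eIF3 genes. eIF3 is the large complex that binds the small ribosomal subunit and helps recruit mRNA. In 20E plus cycloheximide against 20E, 14 of its 16 measured genes had negative differences, 9 had an unadjusted p under 0.05, the median was -0.26, and 1 gene, eIF3h, was called. On 7 of the 16 genes the 3 arrays with both agents lay entirely below the 3 with 20E, which held for 9.32% of all probe sets. The same genes had a median of 0.13 with 20E alone, -0.090 with cycloheximide alone, and -0.032 with 20E in the presence of cycloheximide. In 4 of 4 groups the eIF3 median was highest on the array with the highest testis marker sum, as was the median over all members. That array also had the highest fat body marker sum of its group. The part of testis or fat body tissue in the eIF3 values was not tested.

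eIF3h, a subunit of the complex, measured 752, 614 and 683 without hormone, 773, 885 and 876 with 20E, 757, 673 and 628 with cycloheximide and 660.2, 674 and 526 with both agents. The 20E arrays were the 3 highest of the 12, and the 3 arrays with both agents overlapped those without hormone. The means were 845 ± 62.3 with 20E and 620.2 ± 81.6 with both (SD, n = 3). The fall was -0.45 (SE 0.11, 95% interval -0.70 to -0.20, adjusted p = 0.0855). The difference with 20E alone was 0.31 (adjusted p = 0.243). Its other probe set differed by 0.069 (adjusted p = 0.836) in the comparison where the first fell, so the call rested on 1 of 2 probe sets. The call was also lost when 20E replicate 1 (-0.51), 20E replicate 2 (-0.42), 20E replicate 3 (-0.42), or replicate 1 (-0.50) or 3 (-0.34) with both agents was left out.

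eIF3m had the smallest adjusted p of any member in that comparison but stayed under 1.3-fold. It measured 555, 514 and 529 without hormone, 569, 609 and 571 with 20E, 509, 495 and 490.02 with cycloheximide and 496, 465 and 418 with both agents. The 3 arrays with both agents and the 3 with 20E did not overlap, and the difference was -0.34 (SE 0.072, 95% interval -0.50 to -0.19, adjusted p = 0.0427). eIF3d1, whose product can contact the cap of the mRNA, measured 469.9, 385 and 431 without hormone, 529, 547 and 494 with 20E, 459, 388 and 374 with cycloheximide and 441, 401 and 295 with both agents. Its lowest 20E array lay above all 9 others, and the difference was -0.48 (SE 0.14, 95% interval -0.78 to -0.19, adjusted p = 0.122), short of the test. eIF3i, a subunit with a beta-propeller fold, lay at -0.43 (adjusted p = 0.187), eIF3b at -0.36 (adjusted p = 0.123) and eIF3a, the largest core subunit, at -0.34 (adjusted p = 0.147).

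Paralogs of the eIF3 genes were measured beside them, and no difference between paralogs was tested. eIF3d2, eIF3f2 and eIF3g2 are paralogs of eIF3d1, eIF3f1 and eIF3g1. They were dimmer, with means over all arrays of 56.2, 252 and 75.6, against 435, 806 and 434. In 20E plus cycloheximide against 20E the dimmer genes differed by -0.034, -0.12 and 0.053, where their paralogs differed by -0.48, -0.16 and -0.14. eIF3k, an accessory subunit, lay at 0.029, and eIF3g2 and eIF3k were the 2 positive values of the complex. None of these apart from eIF3d1 had an unadjusted p under 0.05.

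The eIF4 genes were all on the positive side with 20E, without any passing the test. eIF4E binds the mRNA cap, eIF4G is the scaffold that joins it to the ribosome, and eIF4A is the helicase that unwinds the leader. With 20E against no hormone 10 of 10 differences were positive with a median of 0.26. The 20E arrays lay wholly above or below the no hormone arrays on 0 of the 10 genes. Over all probe sets 10.6% lay wholly above and 10.1% wholly below. The eIF4 median was highest, in 4 of 4 groups, on the array with the highest testis marker sum, as was the median over all members. That array also had the highest fat body marker sum of its group. The 4 eIF4 medians were 0.14 (no hormone), 0.43 (20E), 0.21 (cycloheximide) and 0.23 (both agents). The testis markers had a median difference of 0.37 with 20E, with none called. eIF4H2, a cofactor of the helicase, measured 114, 96.8 and 97.5 without hormone, 113, 141 and 127 with 20E, 116, 97.8 and 105 with cycloheximide and 109, 137 and 119 with both agents. The lowest 20E array, at 113, lay just under the highest without hormone, at 114, and the difference was 0.31 (SE 0.11, 95% interval 0.068 to 0.55, adjusted p = 0.224). eIF4E1, the general cap-binding protein, measured 590.02, 479.7 and 477 without hormone, 549, 732 and 609 with 20E, 629, 531 and 533 with cycloheximide and 515, 577 and 381 with both agents. Its highest value was on 20E replicate 2, and the interaction was -0.50 (adjusted p = 0.323).

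eIF4E3 had the largest SE of the 74 genes, 0.26. It encodes a cap-binding protein known from the fly testis, and measured 154, 109.7 and 116 without hormone, 132, 208 and 174 with 20E, 148, 103 and 133 with cycloheximide and 89.0, 192 and 123 with both agents. It was highest on replicate 1 without hormone and with cycloheximide and on replicate 2 with 20E and with both. Those are also the arrays with the highest testis and fat body marker sums in their groups. Its difference with 20E was 0.43 (adjusted p = 0.468), with an interval of -0.13 to 0.99. eIF4G2, a scaffold paralog that male meiosis needs, measured 133, 113 and 94.2 without hormone, 116, 165 and 126 with 20E, 161, 115 and 133 with cycloheximide and 104, 165 and 103 with both agents and was highest on the same arrays. The part of testis or fat body tissue in these and the other eIF4 values was not tested.

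eIF4A measured 3131, 3330.1 and 2592 without hormone, 3009, 3400.3 and 3029 with 20E, 3105, 3062 and 2884 with cycloheximide and 3323, 3319 and 3033 with both agents. Its groups overlapped in every comparison, with differences of 0.066 with 20E, 0.10 with 20E in cycloheximide, 0.0068 with cycloheximide and 0.037 with both against 20E. eIF4E7, a dim cap-binding paralog, measured 50.9, 47.3 and 44.6 without hormone, 54.5, 48.6 and 46.4 with 20E, 61.4, 46.0 and 39.8 with cycloheximide and 49.7, 49.8 and 45.5 with both agents. On this probe set its 4 differences ran from -0.041 to 0.065, while its other probe set gave 0.21 (adjusted p = 0.465) with 20E and -0.24 (adjusted p = 0.434) for both against 20E.

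Among the other initiation factors eIF6 was the most precise. eIF6 keeps the ribosomal subunits apart until the large one is ready. It measured 255, 238 and 255 without hormone, 253, 264 and 263 with 20E, 221, 230.3 and 235 with cycloheximide and 230.3, 224 and 233 with both agents. All 6 arrays with cycloheximide lay below the 6 without it. The differences were -0.12 (SE 0.056, 95% interval -0.25 to -0.0017, adjusted p = 0.23) for cycloheximide against no hormone and -0.18 (SE 0.056, 95% interval -0.30 to -0.059, adjusted p = 0.153) for both against 20E, neither past the test, and its other probe set gave 0.017 and 0.028. eIF1, which guards start codon choice, eIF2A, an alternative tRNA carrier, and eIF5, which triggers GTP hydrolysis on eIF2, had differences with 20E of 0.26, 0.20 and 0.082. eIF5B, which joins the subunits, had 3 probe sets. They gave -0.011, 0.070 and -0.30 (adjusted p of 0.986, 0.895 and 0.0719) in 20E plus cycloheximide against 20E, so the probe sets of this gene disagreed.

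Of the elongation factors, eEF1delta was the nearest to a call. It is part of the exchange factor that reloads eEF1alpha with GTP. It measured 183, 171 and 198 without hormone, 232, 289 and 266 with 20E, 223, 203 and 231 with cycloheximide and 198, 252 and 165 with both agents. The 3 arrays with 20E lay above all 3 without hormone, and those with cycloheximide lay between. The means were 184 ± 13.4 without hormone and 262 ± 28.7 with 20E (SD, n = 3), and the difference was 0.51 (SE 0.13, 95% interval 0.22 to 0.80, adjusted p = 0.103). The difference with 20E in the presence of cycloheximide was -0.12 (adjusted p = 0.852), and the interaction was -0.63 (adjusted p = 0.226). SAM called it with 20E.

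eEF1alpha2, which carries charged tRNA to the ribosome, lay lower on the arrays with cycloheximide, without hormone and with it. It measured 379, 394 and 369.6 without hormone, 404, 459 and 426 with 20E, 361, 271 and 329 with cycloheximide and 374, 356 and 376 with both agents. The cycloheximide arrays lay below all 3 without hormone, and the arrays with both agents lay below all 3 with 20E. The differences were -0.26 (SE 0.095, 95% interval -0.47 to -0.054, adjusted p = 0.149) and -0.22 (SE 0.095, 95% interval -0.43 to -0.012, adjusted p = 0.33), and neither passed the test. Genes of the eEF1alpha family can share sequence, so signal of the paralog on this probe set was not tested.

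eEF1gamma, the structural subunit of the exchange complex, measured 2060.5, 1986 and 1938 without hormone, 2167, 2089 and 1978 with 20E, 1915, 1938 and 1815 with cycloheximide and 1975, 1947 and 1754 with both agents. Its differences stayed between -0.14 and 0.058. eEF5, which helps ribosomes through difficult peptide bonds, had a difference of 0.15 with 20E and no overlap of its arrays with those without hormone. eEFSec, which delivers selenocysteine tRNA, measured 74.7, 89.3 and 78.0 without hormone, 73.5, 75.8 and 76.4 with 20E, 72.5, 73.5 and 76.6 with cycloheximide and 81.2, 77.0 and 75.5 with both agents and ranged from -0.12 to 0.070.

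The release factors had the largest differences with 20E of all roles. eRF1 recognizes the stop codon, and eRF3 is the GTPase that works with it. eRF3 measured 310.2, 258 and 298 without hormone, 395, 534 and 403 with 20E, 357, 330.3 and 354 with cycloheximide and 380.1, 443 and 327 with both agents. Every array with 20E lay above every array without hormone, and so did every array with cycloheximide and every array with both. The means were 289 ± 27.2 without hormone and 444 ± 78.0 with 20E (SD, n = 3). The rise was 1.53-fold, a log2 difference of 0.61 (SE 0.13, 95% interval 0.32 to 0.90, adjusted p = 0.0455). With 20E in the presence of cycloheximide the difference was 0.13 (adjusted p = 0.815), with cycloheximide alone 0.27 (adjusted p = 0.267), and for both against 20E -0.21 (adjusted p = 0.537).

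The eRF3 call depended on single arrays. Without 20E replicate 2, its highest array, the difference was 0.47 and the call was lost. It was also lost without replicate 2 without hormone (0.53) and without replicate 3 without hormone (0.64). With the testis markers as a covariate, an alternative added after the data were seen, the difference was 0.48 and not called.

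eRF1 ran close beside its partner. It measured 329.7, 244 and 264 without hormone, 368, 497 and 378 with 20E, 361, 267 and 301 with cycloheximide and 305, 349.5 and 249 with both agents. The lowest array with 20E lay above the highest without hormone, and the groups with cycloheximide overlapped those without hormone. The means were 279 ± 45.0 without hormone and 415 ± 71.9 with 20E (SD, n = 3). The difference with 20E was 0.57 (SE 0.16, 95% interval 0.21 to 0.93, adjusted p = 0.136), a 1.48-fold change that did not pass the test, though it did without no hormone replicate 1 (0.70, adjusted p = 0.0879). For both agents against 20E it was -0.46 (SE 0.16, 95% interval -0.82 to -0.10, adjusted p = 0.221), and the interaction was -0.61 (adjusted p = 0.274), against -0.48 (adjusted p = 0.28) for eRF3.

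**Figure D2:**
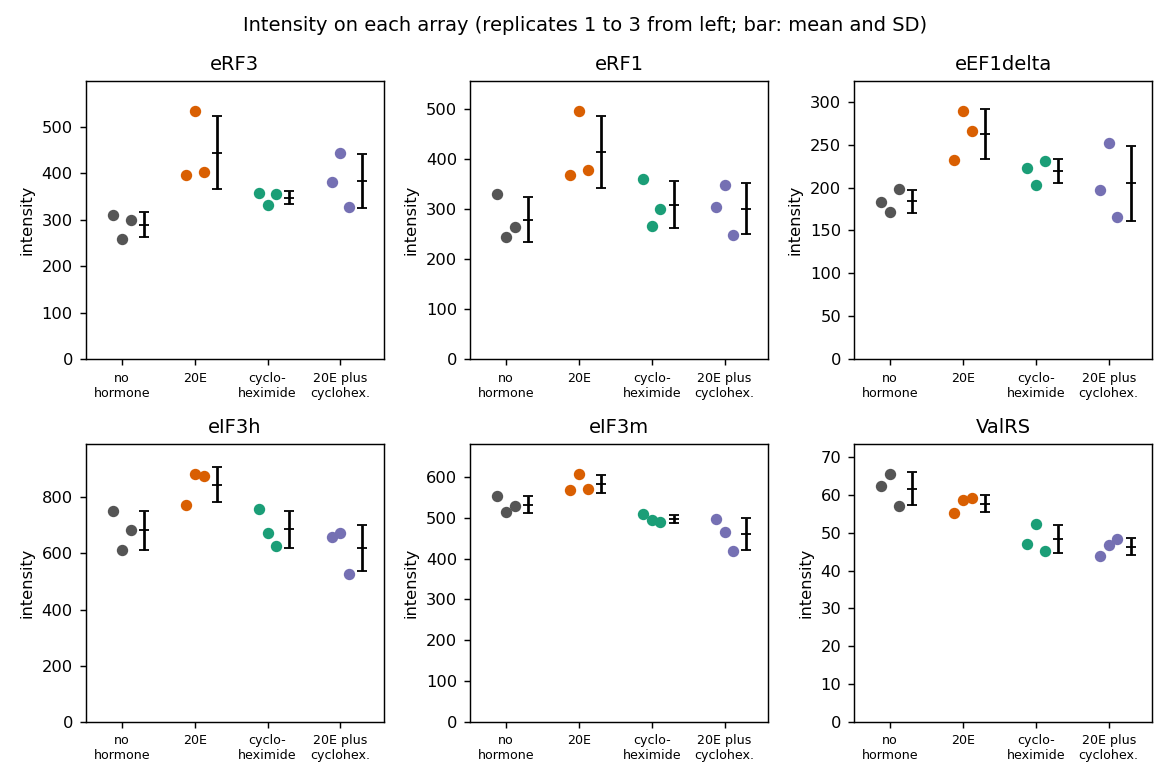
Intensity on each array (y axis, linear scale from 0) of 6 genes by treatment group (x axis), with 3 points per group and a bar for the mean and SD. The 20E group has the highest mean for eRF3, eRF1, eEF1delta, eIF3h and eIF3m, and the 6 arrays with cycloheximide are lowest for ValRS.

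The cytoplasmic synthetases gave no call in any comparison. With 20E plus cycloheximide against 20E, 13 of 16 had negative differences, the median was -0.19, and 7 had an unadjusted p under 0.05, all lower. With 20E, with 20E in cycloheximide and with cycloheximide the medians were 0.066, -0.045 and -0.066. The clearest gene was ValRS, which loads valine. It measured 62.3, 65.8 and 57.2 without hormone, 55.2, 58.8 and 59.2 with 20E, 47.2, 52.4 and 45.3 with cycloheximide and 44.0, 46.9 and 48.3 with both agents. All 6 arrays with cycloheximide lay below all 6 without it. The differences were -0.35 (SE 0.078, 95% interval -0.52 to -0.19, adjusted p = 0.0271) for cycloheximide against no hormone and -0.32 (SE 0.078, 95% interval -0.49 to -0.15, adjusted p = 0.0776) for both against 20E, so the adjusted p passed in both while the fold stayed under 1.3. The first of these became a call without replicate 3 of the no hormone group (-0.41) or without replicate 2 with cycloheximide (-0.42).

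IleRS, which loads isoleucine, had the largest difference of the synthetases. It measured 47.4, 46.2 and 46.0 without hormone, 50.5, 55.8 and 64.7 with 20E, 35.4, 41.1 and 41.9 with cycloheximide and 39.5, 56.4 and 29.8 with both agents. The array of replicate 2 with both agents lay within the 20E range, while the other 2 lay below it. The difference was -0.48 (SE 0.18, 95% interval -0.88 to -0.089, adjusted p = 0.245), and without that replicate it was -0.72 (adjusted p = 0.0299). LeuRS, the leucine enzyme, stood likewise, at -0.35 (adjusted p = 0.315) and at -0.53 (adjusted p = 0.0679) without that replicate, while its other probe set gave 0.024 (adjusted p = 0.96) over all arrays. IleRS and LeuRS were called only with that replicate left out, and under no other alternative. TrpRS, SerRS and HisRS, for tryptophan, serine and histidine, differed by -0.26, -0.29 and -0.24 in the same comparison.

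The remaining cytoplasmic enzymes did not pass the test either. ThrRS, for threonine, measured 244, 244 and 219.9 without hormone, 207, 231 and 206 with 20E, 210.2, 208 and 199 with cycloheximide and 189, 214 and 164 with both agents, and its 3 arrays with cycloheximide lay below the 3 without hormone at -0.20 (SE 0.092, 95% interval -0.40 to 0.0049, adjusted p = 0.247). TyrRS, for tyrosine, measured 527, 481 and 465 without hormone, 499.9, 514 and 484 with 20E, 500.1, 473 and 431 with cycloheximide and 445, 446 and 448 with both agents. Its difference for both against 20E was -0.16 (adjusted p = 0.341), and its other probe set, with intensities near 35.3 on average, gave 0.15 (adjusted p = 0.679). CysRS, for cysteine, measured 44.5, 47.5 and 44.9 without hormone, 43.5, 42.6 and 39.8 with 20E, 42.2, 47.7 and 39.3 with cycloheximide and 46.4, 45.5 and 46.0 with both agents and went the other way, at 0.13 (adjusted p = 0.488). AsnRS, for asparagine, was the synthetase with an unadjusted p under 0.05 with 20E, at 0.23 (adjusted p = 0.295). GluProRS, a fused enzyme for glutamate and proline, lay at 0.092 with 20E and -0.25 for both against 20E.

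The mitochondrial synthetases stayed close to no change. Their medians were -0.016 with 20E, 0.040 with 20E in cycloheximide, 0.0076 with cycloheximide and 0.016 for both against 20E. The intervals of 12, 11, 12 and 12 of the 14 genes lay within 1.3-fold in these comparisons. In 20E plus cycloheximide against 20E, 7 were positive and 7 negative, where 33 of 37 initiation factors were negative. In this group 7 genes lay under 50 on every array, and a change at such intensities can be understated.

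MetRS-m, for mitochondrial methionine, was the member with the smallest adjusted p for 20E in the presence of cycloheximide. It measured 98.1, 118 and 94.2 without hormone, 100.0, 108 and 95.6 with 20E, 99.1, 93.4 and 89.7 with cycloheximide and 117, 109.5 and 116 with both agents. The 3 arrays with both agents lay above the 3 with cycloheximide alone. The difference was 0.28 (SE 0.087, 95% interval 0.088 to 0.47, adjusted p = 0.235), not past the test, and its other probe set gave 0.23 (adjusted p = 0.386). The difference with 20E alone was -0.026.

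TyrRS-m measured 61.0, 60.7 and 62.8 without hormone, 58.0, 56.5 and 57.5 with 20E, 58.9, 53.9 and 52.3 with cycloheximide and 57.5, 54.4 and 59.7 with both agents. Its arrays without hormone were the 3 highest of the 12, with differences of -0.10 (adjusted p = 0.492) with 20E and -0.16 (adjusted p = 0.184) with cycloheximide. AspRS-m measured 200.02, 197 and 186 without hormone, 211, 213 and 182 with 20E, 236, 183 and 196 with cycloheximide and 200.2, 203 and 201 with both agents. Its arrays overlapped between the groups of each of the 4 comparisons, with a difference of 0.069 with cycloheximide. AsnRS-m measured 24.9, 23.6 and 24.2 without hormone, 21.7, 21.3 and 23.7 with 20E, 26.4, 26.8 and 28.9 with cycloheximide and 26.3, 28.1 and 20.0 with both agents. Its cycloheximide arrays lay above those without hormone, at 0.17 (adjusted p = 0.39). IleRS-m held all 6 member intensities under 10, the floor used here, and its differences are not readable.

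The arrays of each gene were also compared for overlap between groups. With 20E 13 members lay wholly above no hormone and 2 wholly below, against 10.6% and 10.1% of all probe sets. With 20E in cycloheximide the counts were 2 above and 1 below, against 7.78% and 6.09%. With cycloheximide they were 4 above and 11 below, against 12.1% and 15.0%. For both agents against 20E they were 3 above and 17 below, against 8.64% and 9.32%. The count of 17 was the one farthest from its background, and it shares the 20E arrays with the count of 13.

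**Figure D3:**
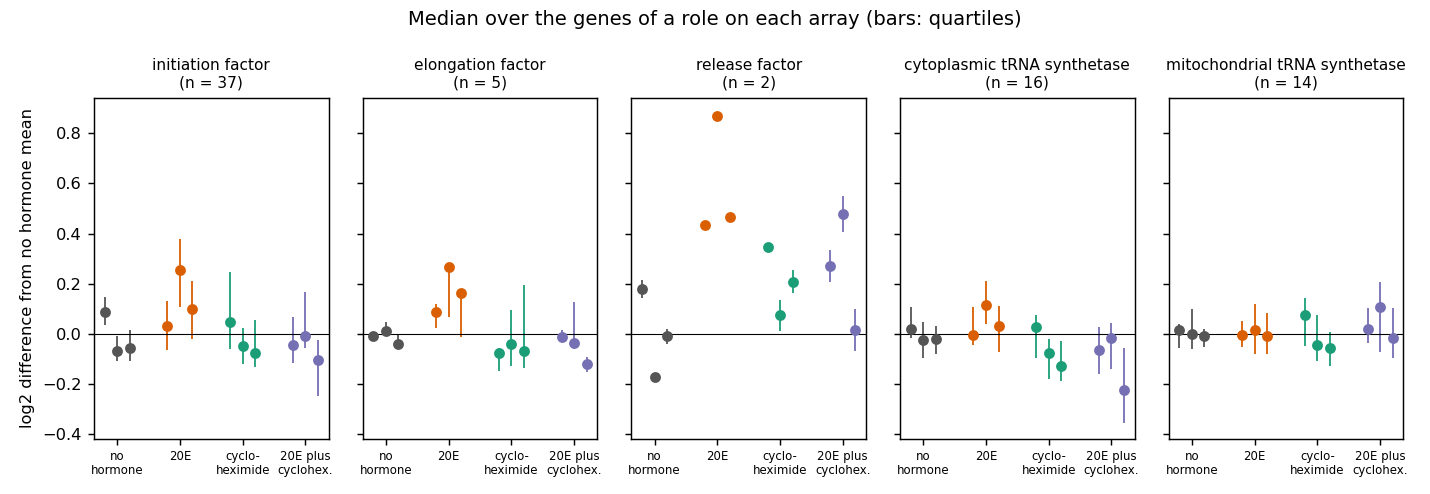
Median over the genes of each role of the log2 difference from the no hormone mean (y axis), for each of the 12 arrays by group (x axis, replicates 1 to 3 from left), with bars for the quartiles over genes. The initiation factors reach 0.26 on 20E replicate 2, and the mitochondrial synthetases run from -0.057 to 0.11, highest on 20E plus cycloheximide replicate 2.

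The shift was largest on 20E replicate 2. Of the 74 members 46 (62.2%) had their highest group mean with 20E, against 27.7% of all probe sets, and 32 (43.2%) had their highest value of all on 20E replicate 2, against 12.5% of all probe sets. The median of the 37 initiation factors was 0.032, 0.26 and 0.10 on 20E replicates 1, 2 and 3, relative to the no hormone mean. It was 0.089, -0.067 and -0.056 on the no hormone arrays, so no hormone replicate 1 lay above 20E replicate 1. Without 20E replicate 2 the median over all members fell from 0.087 to 0.055 with 20E, and for both against 20E it went from -0.13 to -0.077.

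The same array had the highest testis marker sum of its group. All 8 testis markers had a mean above 50 in every group and none was called. In 4 of 4 groups the array with the highest testis marker sum was also the array with the highest median of the initiation factors. The same held in 4 of 4 groups for the median over all members, and in 1 of 4 groups for eIF2 and eIF2B. The match was not particular to testis, since the sum of the 3 fat body markers was highest on the same arrays. Those fat body sums were 21419 (no hormone), 21915 (20E), 22476 (cycloheximide) and 21122 (both agents). Between groups, 20E plus cycloheximide replicate 2 had a sum of 4720 with an initiation factor median of -0.0079, while 20E replicate 2 had 4617 with 0.26. On the first of these arrays the eIF3 median was -0.040, the eIF4 median 0.23 and the median of the other initiation factors outside eIF2 and eIF2B 0.20. With the testis markers as a covariate the median over members was 0.031 with 20E, where the main fit gave 0.087. For both against 20E it was -0.10, where the main fit gave -0.13. In the latter comparison eIF3h stayed called, at -0.40 (adjusted p = 0.0803). The part of testis tissue in the shift was not tested further, and that of fat body was not tested.

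**Figure D4:**
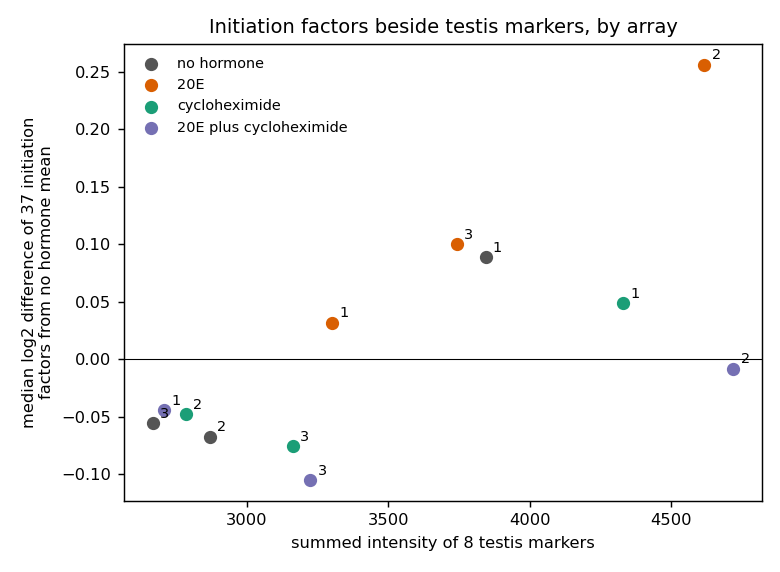
Median log2 difference of the 37 initiation factors from the no hormone mean (y axis) against the summed intensity of 8 testis markers (x axis), 1 point per array, numbered by replicate and coloured by group. 20E replicate 2 lies highest, at 0.26 and a sum of 4617.

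The effects of 20E without and with cycloheximide were set side by side for each gene. These comparisons share no arrays. Over the 74 members 26 (35.1%) had the same sign in both, against 41.3% of all probe sets. The Pearson correlation across genes was -0.161 (Spearman -0.243) for members and 0.133 (Spearman -0.163) for all probe sets, where genes share the same arrays and are not independent. eRF3 gave 0.61 and 0.13, eRF1 0.57 and -0.042, and eEF1delta 0.51 and -0.12. The effects of cycloheximide without and with 20E, which also share no arrays, had the same sign in 37 of 74 members (50%), against 52% of all probe sets. The Pearson correlation was 0.0281 (Spearman 0.0326) for members and 0.285 (Spearman 0.0642) for all probe sets. ValRS was negative in both, at -0.35 and -0.32.

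**Figure D5:**
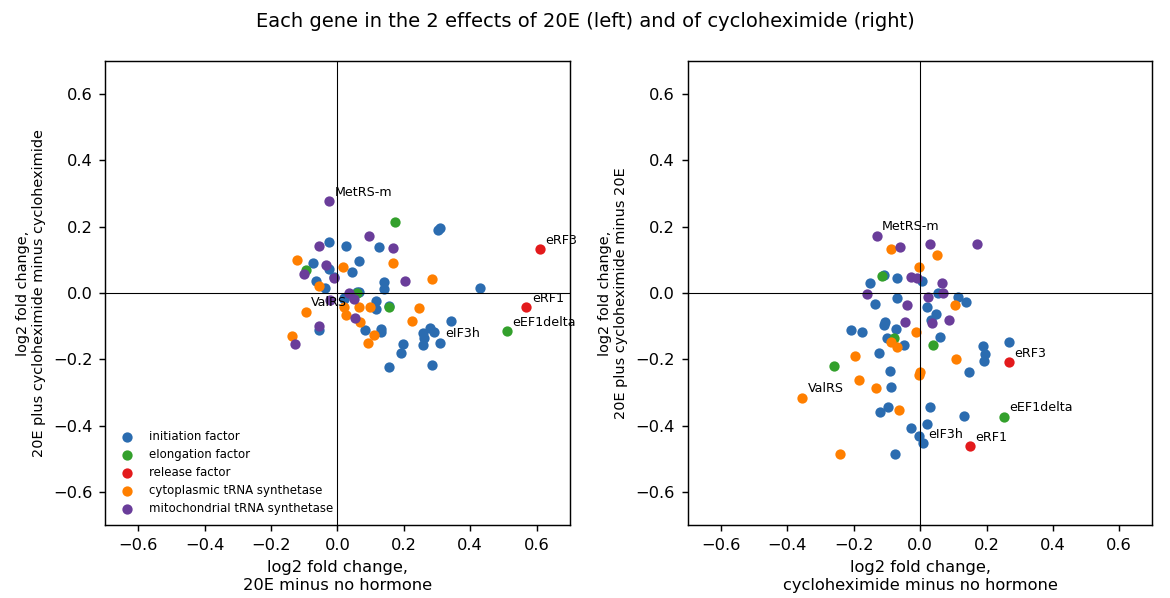
Log2 fold change of each of the 74 genes, coloured by role, in the effect of 20E without (x axis) and with (y axis) cycloheximide on the left, and in the effect of cycloheximide without (x axis) and with (y axis) 20E on the right. eRF3 lies at 0.61 and 0.13 on the left, and ValRS at -0.35 and -0.32 on the right.

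Other genes of translation outside the naming rule were counted from a fixed list. It held regulators of initiation such as the kinases PEK and Gcn2, the synthetase partners AIMP1, AIMP2 and AIMP3, both PheRS subunits, mitochondrial translation factors and mRNA surveillance genes, and 29 were measured. None of the 29 was called by limma in the 4 pairwise comparisons or the interaction. Of all probe sets 2.16% were called with 20E, 1.25% with 20E in cycloheximide and 4.42% with cycloheximide. For both against 20E the share was 1.99% and for the interaction 0.136%, so a count of 0 among 29 genes was near these shares. Their median differences were 0.063 with 20E, -0.0080 with 20E in cycloheximide, 0.076 with cycloheximide and -0.0095 for both against 20E, beside -0.0062, 0.017, -0.033 and -0.0055 over all probe sets.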

How the data were processed

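RNA of 4 groups was measured on 12 Affymetrix Drosophila Genome Arrays, 3 for each group and 1 sample on each. The deposited values are linear intensities, 1 per probe set, that the authors normalized with dChip. The baseline array and the use of mismatch probes are not given in the sources used here, and no detection calls were used. Of 13966 probe sets the platform annotation gave 12443 exactly 1 gene, 327 several and 1196 none, and only the first kind entered the members. All 74 symbols were the same in the RefSeq gene table.

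A floor of 10 was put on the intensities before taking log2. The 12 arrays entered a single 4-group fit (limma 3.58.1, R 4.3.3) whose variances were moderated along a trend in intensity. Tests were two-sided, the Benjamini-Hochberg adjustment ran across all 13966 probe sets, and the script was tested on simulated data. The 95% intervals come from that fit.

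The members and lists were chosen with earlier results of these data known. Genes named by rule were those called, the brightest and dimmest of each role and, in roles with no call, the 2 with the smallest adjusted p with cycloheximide, which gave 17 genes. Other members named were chosen after their values were seen. Pairs of arrays in 1 group shared from 2 to 8 identical intensities. Arrays of equal replicate number deviated together for cycloheximide against no hormone (correlations 0.414, 0.211 and 0.294), so the numbers may pair these samples. This possible pairing rests on the values, since the labels name no shared batch, and the main fit held no replicate block. The testis and fat body marker sums were highest on replicate 1 in both groups, and their part in these correlations was not tested.

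Alternatives were a floor of 50, log2 of the intensity plus 16, quantile normalization, median centring, no intensity trend, leaving out the dimmest tercile of probe sets, a replicate block, fits on only the arrays compared, SAM with 20 permutations, no fold limit, an adjusted p under 0.05, the dimmest probe set of each gene, leaving out each array, and testis markers as a covariate. The last was added after the data were seen.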

Additional observations from a re-analysis of the deposited data

How the results depend on the processing

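Neither called gene kept its call throughout. With 20E, 1 gene was called, and the count was 0 with a floor of 50 and with the testis markers as a covariate, and 2 (eRF3 and eEF1delta) with log2 of the intensity plus 16, median centring, the dimmest probe sets left out, the replicate block and SAM. Leaving out each array gave 0 to 2. With only the arrays compared the count was 1, but that gene was eEF1delta (adjusted p = 0.0726) and not eRF3.

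For 20E plus cycloheximide against 20E, 1 gene was called. The count was 0 with a floor of 50, only the arrays compared, an adjusted p under 0.05 and the dimmest probe set of each gene. It was 2 with log2 of the intensity plus 16 and with the dimmest probe sets left out, 3 with no fold limit and 3 with the replicate block (eIF3d1, eIF3h and eIF3i). Leaving out each array gave 0 to 5, the 5 without replicate 2 of both agents (eEF1delta, eIF3h, eIF3j, IleRS and LeuRS). The call moved to eIF3a (-0.45) without 20E replicate 3, and to eIF3d1 (-0.60) and eIF3m (-0.40) without replicate 1 of both agents.

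With cycloheximide the count of 0 became 1 (ValRS) with no fold limit, and leaving out each array gave 0 to 1. The replicate block, which a pairing of these samples would ask for, left the count at 0. For the interaction, leaving out each array gave 0 to 1, the 1 being eEF1delta without replicate 2 of both agents (-0.79). With 20E in cycloheximide the count was 0 under every alternative run. In the other comparisons equal numbers did not all correlate above the limit of 0.1 used here, so the samples were taken to share only a number. For both agents against 20E the correlations were 0.388, 0.551 and 0.0887, all positive with 1 just under that limit, with 20E they were -0.0282, 0.11 and 0.356, and with 20E in cycloheximide 0.0262, -0.122 and 0.269.

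The median over members kept its sign under every alternative run with 20E (0.031 to 0.12) and for both agents against 20E (-0.17 to -0.077). Leaving out the dimmest probe sets, those below the tercile of mean intensity, kept 55 members. The cause of these changes was not tested. With 3 arrays a group, changes near 1.3-fold in single genes were near the limit of detection. The motif search in promoters was not run.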
